A study of Capra hircus with 27 samples.

Results

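The goat gene set used by the study holds 22131 protein-coding genes, of which 4460 are consensus gene predictions with goat_GLEAN IDs that carry no homolog's name. The other 17671 IDs begin with GOAT_ and are built on the ID of a bovine or human Ensembl protein. The goat_GLEAN predictions were ranked by the largest of their 3 tissue means of log2(FPKM + 1), where FPKM is the number of fragments scaled by transcript length and by library size, and the top 300 are described here as members. The expression values therefore chose the members, and their levels and tissue patterns are given as a description with no test. The last member, goat_GLEAN_10020768, had a largest mean of 4.02 and the one before it, goat_GLEAN_10001239, also had 4.02, while the first predictions left out, goat_GLEAN_10010870 and goat_GLEAN_10000926, both had 4.01.

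RNA-seq had been run on heart, lung and skeletal muscle of goats about 3 years old from indigenous populations living in Ya'an at 600 m, in Zhaotong at 2000 m and in A'ba at 3000 m, with 3 libraries for each tissue and altitude. The study's methods describe unrelated adult females at 600 m and 3000 m, and the 2000 m animals lie outside that description. Each altitude is 1 population at 1 place, so altitude, population and place cannot be told apart. The values used here give no read number per library, and relative depth estimated from the smallest FPKM steps lay at 0.804 to 0.968 in heart, 0.949 to 1.26 in lung and 0.916 to 1.21 in muscle. Muscle replicates 1 and 2 at 600 m differed by less than the sampling noise, with a variance ratio of 0.941 against 3.24 to 24.01 in the 26 other replicate pairs, and were counted as 1 sample in the tests. Over the 300 members, the library most correlated with each of the 27 was of the same tissue. The members are not paired with gene symbols in the files, so tissue marker genes could not be looked up.

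A consensus predictor such as GLEAN merges several kinds of evidence for a gene into 1 model. A prediction that takes no name from a human or bovine protein can be a gene special to ruminants, a fast-evolving or very short gene, a fragment of a longer gene or a false model. Such genes have no assigned role, so the members are ordered below by where they were expressed. Heart and skeletal muscle are both striated muscle and share many contractile and energy genes, while lung is rich in epithelium, vessels and immune cells.

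Most predictions without a homolog's name were silent or weak in these tissues. Of the 4460, 46.2% were listed at 0 in every library against 8.72% of the GOAT_ genes, and 35.1% passed an FPKM of 0.5 in at least 1 library against 80.5%. In all 27 libraries, 11.9% of the predictions and 51.8% of the GOAT_ genes passed that level. Only 6.73% of the predictions reached the level of the last member, against 32.8% of the GOAT_ genes. The median of the members' largest tissue mean was 5.28 on the log2 scale, equal to an FPKM of 37.8. It was below 5 for 117 members and at 8 or more for 34.

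Together the 300 members made up 3.32 to 4.01% of all FPKM in the heart libraries, 4.29 to 5.14% in lung and 2.30 to 2.86% in muscle. In heart much of this came from a single member. goat_GLEAN_10001033 alone held 20.1 to 34.9% of the members' FPKM there.

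Most of the members were broad. These 210 (70%) had no tissue at least 2 above the next on the log2 scale and none at least 2 below, against 75.9% of GOAT_ genes of like abundance, weighted to the members' numbers in steps of 1 of the largest mean. Their median levels were close, at 4.60 in heart, 4.97 in lung and 4.26 in muscle on the log2 scale. A leading tissue at least 2 above the next was found for 75 members (25%), against 18.0% of the like GOAT_ genes. In the step from 7 to 8 the shares were 41.7% of 24 members and 24.1% of 481 GOAT_ genes, and in the step from 9 to 10 the order was the opposite, at 18.2% of 11 and 25.3% of 146.

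**Figure D1:**
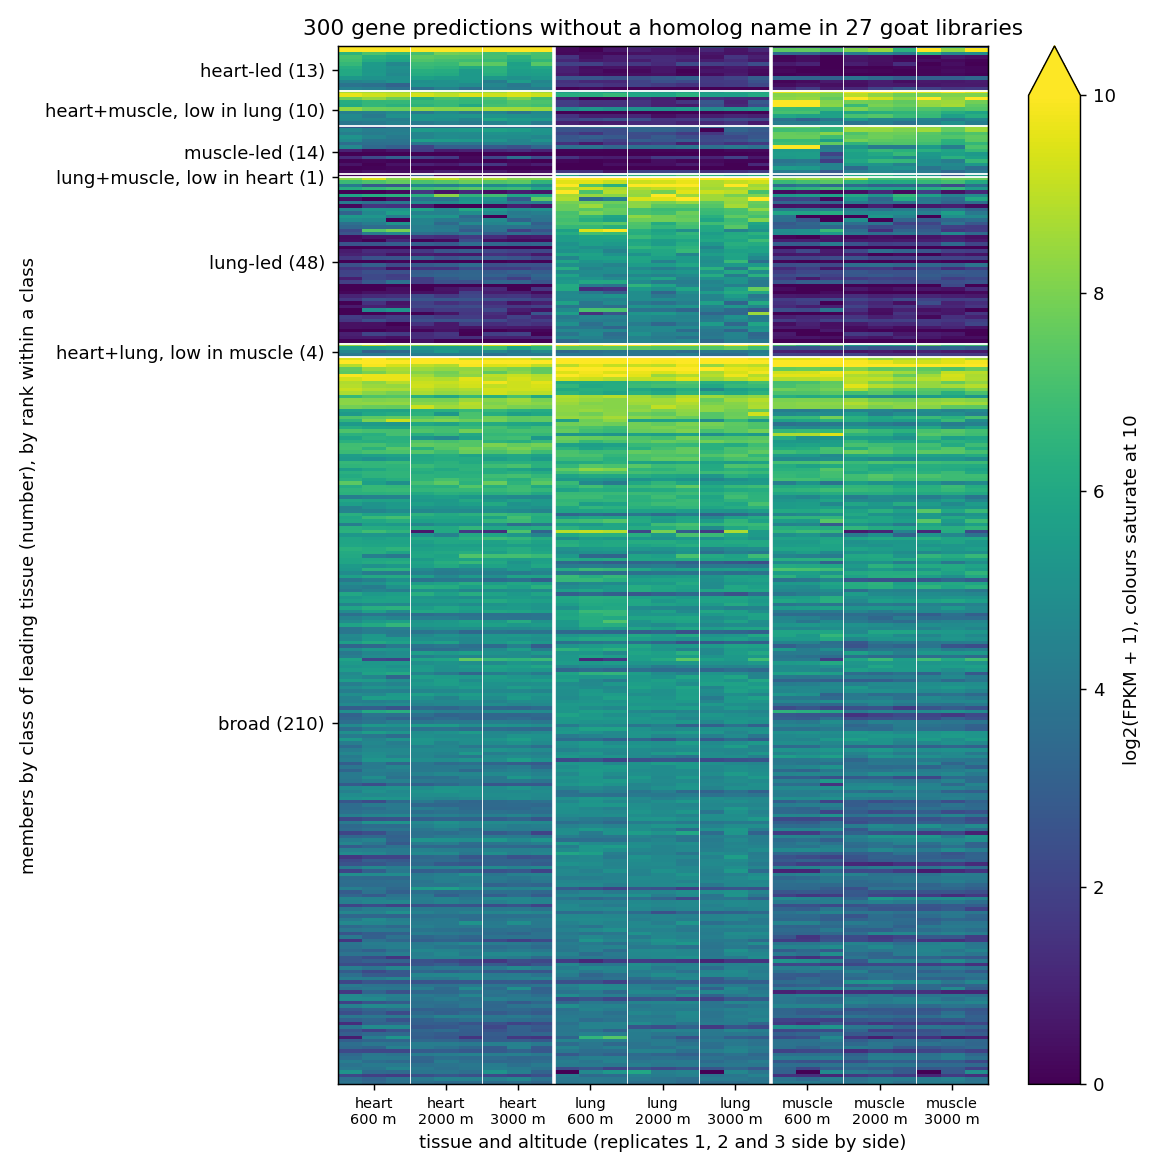
Heat map of log2(FPKM + 1), with 1 row for each of the 300 members, grouped by class of leading tissue, and 1 column for each of the 27 libraries, in order of tissue, altitude and replicate. The 13 heart-led, 14 muscle-led and 48 lung-led members stand as blocks that are darker in the other tissues. Some led members remain bright there, such as goat_GLEAN_10009620 at 8.60 in heart and 7.80 in muscle. The 210 broad members are of like colour across all 3.

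Lung led most often. It was the leading tissue of 48 members (16%), against 13.1% of the like GOAT_ genes, while 14 members (4.67%) were led by muscle against 2.48%, and 13 (4.33%) by heart against 2.40%. With any gap counted, lung was highest for 185 members (61.7%), heart for 65 (21.7%) and muscle for 50 (16.7%), where the like GOAT_ genes stood at 55.9%, 25.7% and 18.4%. Classes of paired tissues were drawn up after the values were seen. They held 10 members high in heart and muscle and low in lung, 4 high in heart and lung and low in muscle, and 1, goat_GLEAN_10018660, low in heart. The boundary is not sharp, since 20 of the led members had a gap of 2 to 2.5 and 40 others had a gap of 1.5 to 2.

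The heart-led members showed the steepest restriction. The median level of the 13 was 6.01 in heart, 0.91 in lung and 0.55 in muscle on the log2 scale, and the median gap to the next tissue was 4.66. For the 48 lung-led members the median levels were 5.31 in lung, 2.08 in heart and 1.80 in muscle, and the 14 muscle-led members stood at 6.04 in muscle, 2.58 in heart and 1.54 in lung.

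goat_GLEAN_10001033, the most abundant member, was far higher in heart than elsewhere. Its FPKM in heart was 7951, 6460 and 5528 at 600 m, 8413, 6145 and 7823 at 2000 m, and 11675, 11310 and 9517 at 3000 m. In lung it lay between 0.0881 and 6.50 and in muscle between 0.794 and 20.0. All 3 heart libraries at 3000 m stood above the other 6, and its gap of 10.9 on the log2 scale to the next tissue was the largest of the 300 members. The next heart-led member, goat_GLEAN_10000937, was a striated-muscle transcript, with an FPKM of 1205 to 2711 in heart, 88.3 to 1061 in muscle and 0 to 1.11 in lung.

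The most abundant lung-led members were high in every tissue and higher still in lung. goat_GLEAN_10009620 had an FPKM of 1156 to 3138 in lung, 283 to 698 in heart and 127 to 367 in muscle. goat_GLEAN_10020872 had 436 to 803 in lung, 91.5 to 216 in heart and 63.5 to 172 in muscle. Neither had lung libraries that overlapped those of another tissue. The muscle-led pair was less abundant. goat_GLEAN_10002348 had 102 to 412 in muscle, 4.59 to 11.7 in heart and 6.75 to 11.8 in lung, and goat_GLEAN_10004511 had 94.5 to 369 in muscle, 18.3 to 54.4 in heart and 0 to 8.82 in lung. Of the broad members, goat_GLEAN_10008356 had 461 to 1094 in heart, 849 to 2980 in lung and 331 to 2081 in muscle, and its tissues overlapped. goat_GLEAN_10005503 had 1085 to 2784 in heart, 946 to 2975 in lung and 602 to 1451 in muscle, and its tissues overlapped too.

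Detection was a little less complete than for GOAT_ genes of like abundance. FPKM exceeded 0.5 in all 27 libraries for 250 members (83.3%) against 89.6%, and 34 members (11.3%) were listed at 0 in at least 1 library against 5.78%. In heart, 269 members passed 0.5 in every library and 8 in none, in lung 281 and 6, and in muscle 267 and 8. The share of like GOAT_ genes that passed in every library was 94.6% in heart, 96.1% in lung and 93.4% in muscle.

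**Figure D2:**
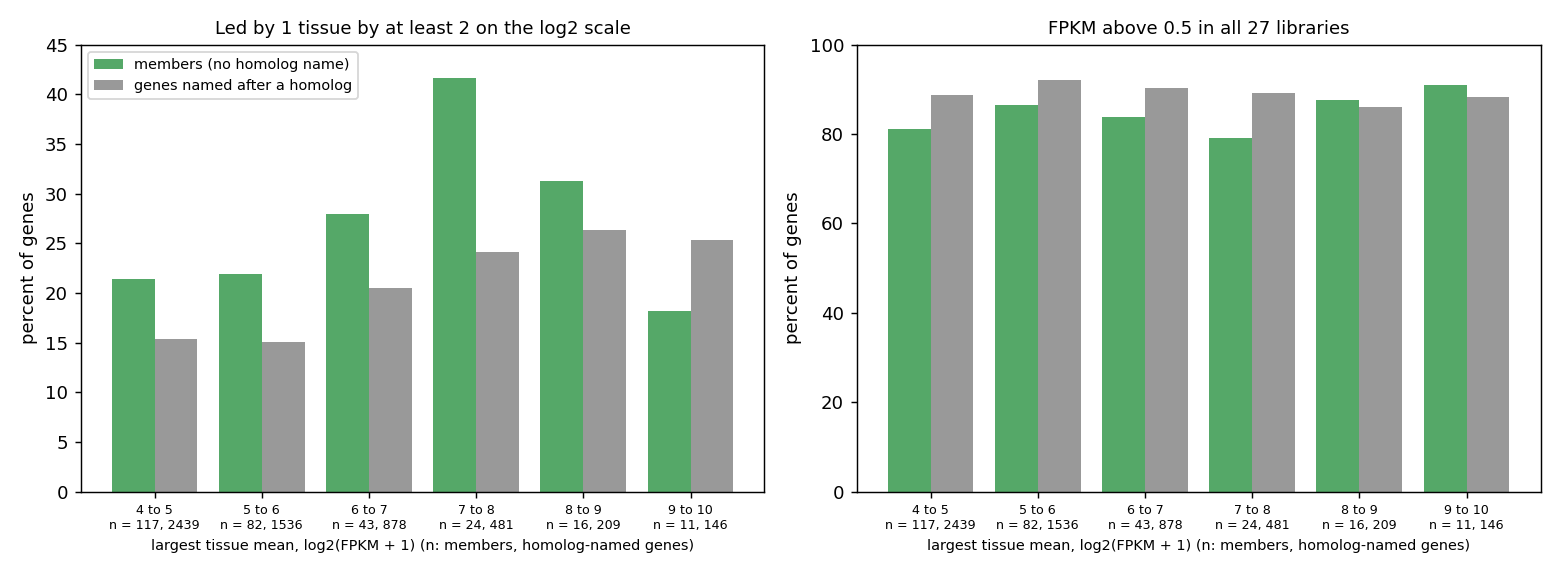
Bars of the percent of genes led by 1 tissue (left) and with an FPKM above 0.5 in all 27 libraries (right), for members and homolog-named genes in steps of 1 of the largest tissue mean on the log2 scale, for steps with at least 10 members. The members' bars are the higher ones on the left from 4 to 9 and the lower ones on the right from 4 to 8.

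Some zeros fell in the midst of high values. In 5 members (1.67%, against 0.549% of the like GOAT_ genes) a library was listed at 0 in a tissue where at least 5 libraries exceeded an FPKM of 5. They were goat_GLEAN_10000538, goat_GLEAN_10004511, goat_GLEAN_10002202, goat_GLEAN_10000368 and goat_GLEAN_10010481, and the criterion was set after their values were seen. In lung, goat_GLEAN_10010481 had an FPKM of 0, 24.4 and 39.0 at 600 m, 61.0, 18.7 and 21.9 at 2000 m, and 0, 23.4 and 14.2 at 3000 m. In muscle, goat_GLEAN_10002202 had 12.7, 0 and 0 at 600 m, 0, 38.5 and 19.6 at 2000 m, and 0, 29.6 and 24.9 at 3000 m. Its 4 zeros in muscle were spread over all 3 altitudes. A listed 0 in these files can be a failed estimate.

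The number of members detected was lower at 600 m in heart and partly in muscle. In heart it was 276 to 280 at 600 m, 285 to 287 at 2000 m and 285 to 287 at 3000 m. In muscle it was 274 to 280, 280 to 282 and 281 to 287, and in lung 285 to 289, 288 to 290 and 288 to 291. The like GOAT_ genes moved in the same direction in heart, where 95.9 to 96.2% were detected per library at 600 m, 97.2 to 97.5% at 2000 m and 96.9 to 97.0% at 3000 m. Relative depth in heart was 0.813 to 0.904 at 600 m, within the 0.804 to 0.923 at 3000 m and below the 0.9403 to 0.968 at 2000 m. In heart no 600 m library overlapped the others, in muscle the 600 m and 2000 m groups met at 280, and in lung the groups overlapped. Over all genes, the share detected at 600 m was 52.8 to 53.6% in heart, 60.5 to 61.8% in lung and 51.9 to 52.0% in muscle. At 2000 m and 3000 m it was 54.9 to 56.8%, 61.9 to 63.1% and 52.5 to 54.0%. Lower detection at 600 m was therefore seen over all genes in every tissue.

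**Figure D3:**
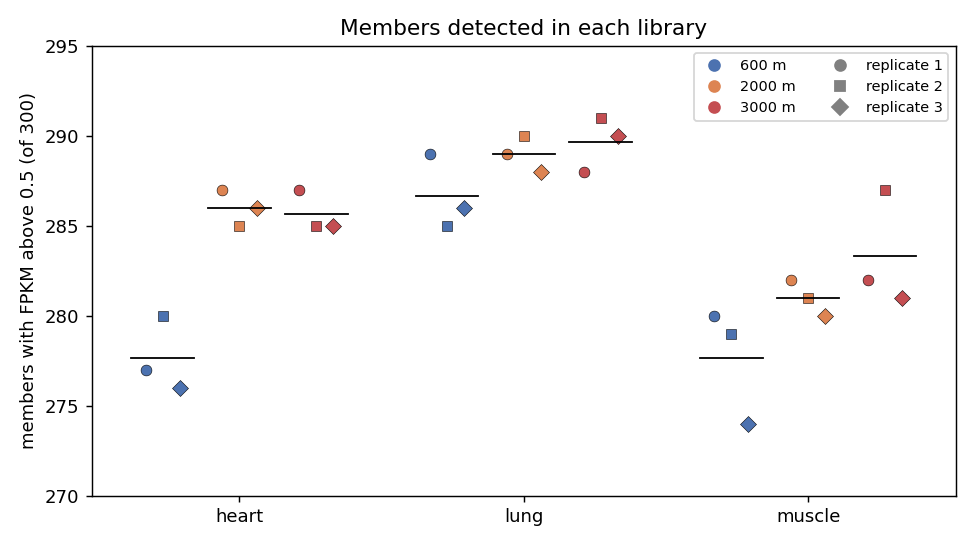
Number of the 300 members with an FPKM above 0.5 in each library, by tissue and altitude (colour) and replicate (shape), with the mean of each group as a line; the axis starts at 270. In heart the 600 m libraries lie at 276 to 280 and the others at 285 to 287.

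Replicates of 1 group varied more for the members than for like GOAT_ genes. The median SD within groups was 0.32 on the log2 scale, and 222 members (74.0%) lay above the median of the GOAT_ genes in their step, where 49.97% of those genes do. An SD of 1 or more was found for 12 members (4%) against 1.51%. The deviations of a member in heart were set beside those in lung over the 9 pairs of the same altitude and replicate number. The 12 variable members had a median Pearson's r of 0.67, and the 300 a median of 0.28, near the mean of 0.29 over the like GOAT_ genes. For heart and muscle the medians were 0.50 and 0.14, and for lung and muscle 0.44 and 0.01. These are descriptions over pairs that share an altitude and a replicate number.

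The member with the largest SD, 2.38, was goat_GLEAN_10019953, chosen after its values were seen. In lung its FPKM was 491, 535 and 466 at 600 m, 3.36, 246 and 6.70 at 2000 m, and 2.26, 419 and 43.6 at 3000 m. In heart it was 82.7, 117 and 89.1, then 0.611, 65.3 and 2.32, then 1.502, 148 and 8.43, and in muscle 92.8, 114 and 99.9, then 0.638, 1.06 and 20.9, then 1.20, 72.9 and 3.91. All 9 libraries at 600 m were high, and at 2000 m and 3000 m a single replicate stood far above the other two in each tissue. That replicate was number 2 in heart and lung at both altitudes and in muscle at 3000 m, and number 3 in muscle at 2000 m. No altitude contrast of this member was called, and the limma adjusted p closest to the threshold was 0.0841, in muscle for 2000 m vs 600 m.

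Altitude was compared within each tissue on log2(FPKM + 1) with limma over all genes with a mean FPKM above 0.5 in the tissue, and a gene was called at a Benjamini-Hochberg adjusted p of 0.05 or less. A change on this scale understates that of genes with low FPKM. Where a gene's FPKM was under 0.15 in each of 2 libraries, the ratio between them sat at the pair's most common value for 7.89 to 14.9% when a 600 m library was paired with a higher one, for 20.0 to 29.3% between 2000 m and 3000 m, and for 15.9 to 38.1% within an altitude. The 600 m libraries stand apart in these smallest values in all 3 tissues, and this separation cannot be told apart from altitude. The study's methods describe 3 unrelated animals per population at 600 m and 3000 m, and do not cover 2000 m. The labels themselves name no goat for any library, so the p-values measure the spread between these libraries.

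Heart had the most members called, and most of them were higher at altitude. For 3000 m vs 600 m, 53 of 290 members tested were called (18.3%), with 44 higher and 9 lower. The background was 11.1% of the 12363 genes tested, 7.38% higher and 3.75% lower, and 14.3% of the like GOAT_ genes were called. For 2000 m vs 600 m, 80 members were called (27.6%), with 61 higher and 19 lower, beside a background of 22.5%, with 16.3% higher and 6.18% lower, and 23.6% of the like GOAT_ genes. The members called changed by a median of 0.82 at 3000 m and 0.89 at 2000 m in absolute log2 value, and 15 and 34 of them by 2-fold or more. Over the members tested the median change was 0.15 at 3000 m and 0.18 at 2000 m, beside 0.08 and 0.13 over all genes tested. Scaling the libraries by the median of ratios turned the split at 3000 m into 37 higher and 22 lower, and that at 2000 m into 44 and 35, and the median change of all genes at 2000 m then moved from 0.13 to -0.01. Without 3000 m replicate 1 the count for 3000 m fell to 0 by limma, with 91 members at an unadjusted p below 0.05, and leaving out 2000 m replicate 1 or 2 gave 31 or 35, 3000 m replicate 2 or 3 gave 30 or 17, and 600 m replicate 2 or 3 gave 16 or 13. For 2000 m it was 45, 53 and 49 without 2000 m replicates 1, 2 and 3.

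**Figure D4:**
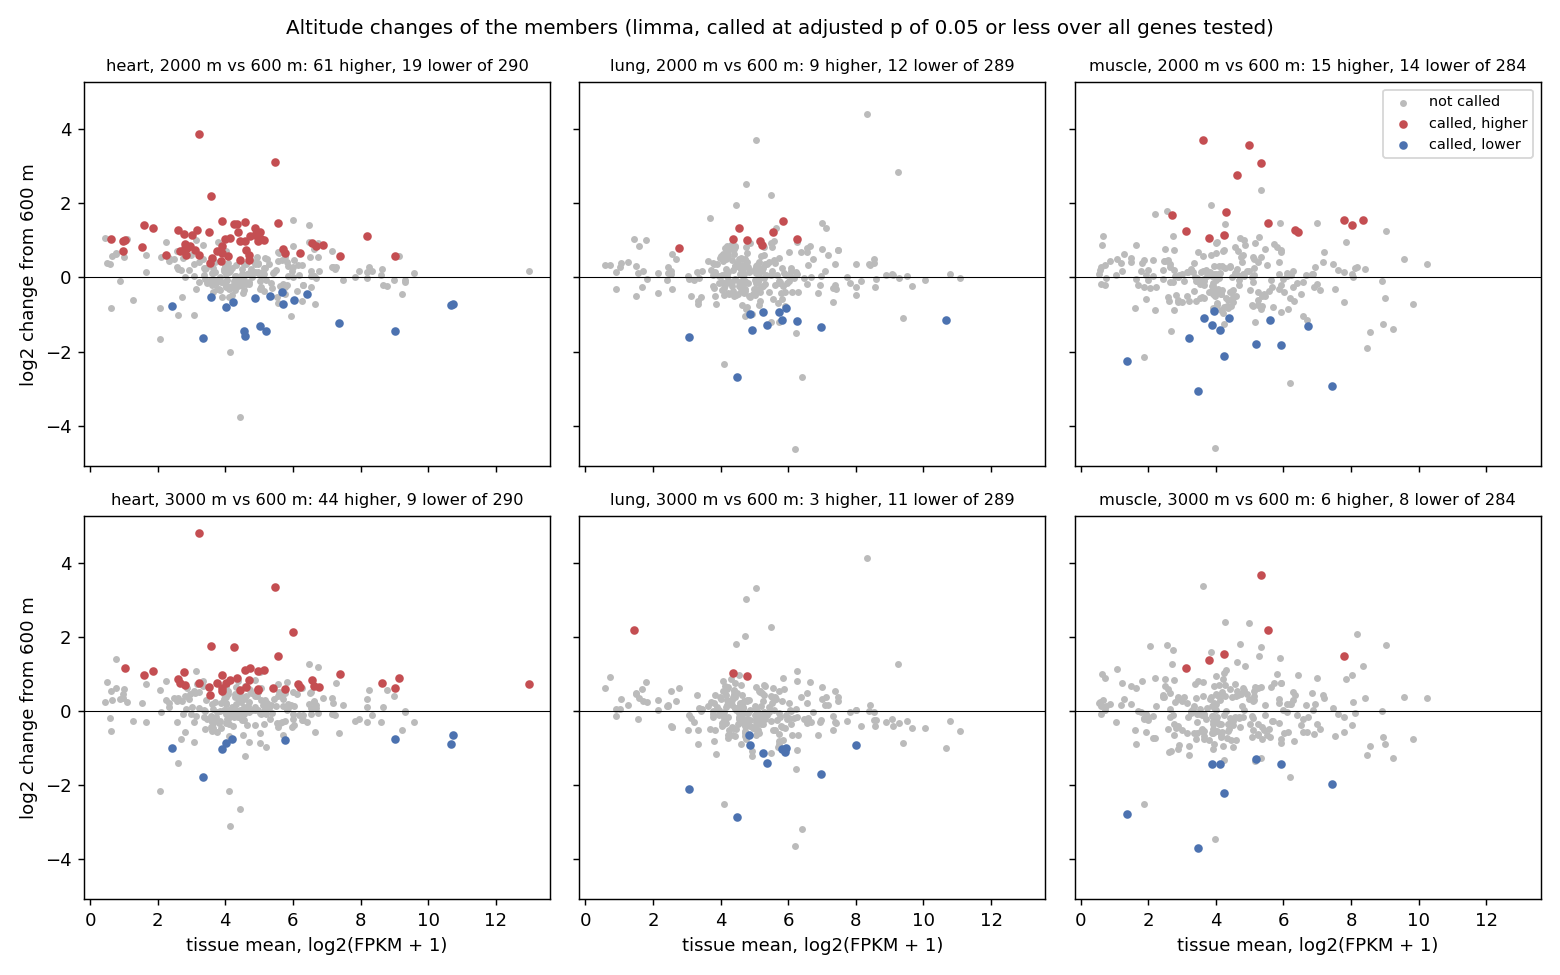
Log2 change from 600 m against tissue mean of log2(FPKM + 1) for the members tested, with 2000 m in the upper row, 3000 m in the lower row and a column for each tissue; red and blue points are called higher and lower, and grey points are not called. Red points outnumber blue in heart, with 61 against 19 at 2000 m and 44 against 9 at 3000 m, and lie at all levels of expression.

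In lung the called members were few. For 3000 m vs 600 m, 14 of 289 tested were called (4.84%), with 3 higher and 11 lower, beside a background of 2.84% of 13965 genes, 0.73% higher and 2.11% lower, and 4.48% of the like GOAT_ genes. For 2000 m vs 600 m, 21 were called (7.27%), with 9 higher and 12 lower, beside 5.1%, with 2.22% higher and 2.88% lower, and 6.93% of the like GOAT_ genes. These shares lie near those of GOAT_ genes of like abundance. The splits were 5 higher and 6 lower at 3000 m and 17 and 15 at 2000 m after median-of-ratios scaling, and 1 and 2, and 19 and 8, after quantile normalization. Every lung library bore on the 3000 m count, which became 1, 1 or 0 on leaving out 2000 m replicate 1, 2 or 3, became 2, 3 or 0 on leaving out 3000 m replicate 1, 2 or 3, and became 44, 0 or 0 on leaving out 600 m replicate 1, 2 or 3. The 2000 m count was 0 without any single 2000 m replicate, became 52, 0 or 0 on leaving out 600 m replicate 1, 2 or 3, and 13 or 11 on leaving out 3000 m replicate 1 or 2. In these limma fits with a count of 0, 59 to 87 members had an unadjusted p below 0.05 in either contrast.

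In muscle, where the 600 m group is 2 samples, 14 of 284 members were called for 3000 m vs 600 m (4.93%), with 6 higher and 8 lower, beside a background of 2.08% of 11920 genes, 0.772% higher and 1.31% lower, and 2.73% of the like GOAT_ genes. For 2000 m vs 600 m, 29 were called (10.2%), with 15 higher and 14 lower, beside 5.91%, with 1.93% higher and 3.98% lower, and 7.81% of the like GOAT_ genes. Of the members called, all 14 and 28 of the 29 reached 2-fold, with medians of 1.51 and 1.55 in absolute log2 value. Sizes among called members depend on the calling threshold, so they do not compare the tissues. Over all members tested, the median absolute log2 change at 3000 m was 0.49 in muscle, 0.36 in heart and 0.34 in lung. At 2000 m it was 0.44, 0.38 and 0.36. Quantile normalization gave 6 higher and 4 lower at 3000 m and 18 and 9 at 2000 m. Median-of-ratios scaling gave 4 and 6 at 3000 m and 14 and 10 at 2000 m. By limma the 3000 m count was 0 without 600 m replicate 3, which leaves 1 sample there, and also 0 if 3000 m replicate 3 was left out, with 55 and 64 members at an unadjusted p below 0.05. Leaving out 2000 m replicate 1, 2 or 3 gave 8, 7 or 6, leaving out 3000 m replicate 1 or 2 gave 1 or 37, and leaving out the merged 600 m sample, which again leaves 1, gave 24. The 2000 m count became 6, 3 or 5 on leaving out 2000 m replicate 1, 2 or 3, became 18 on leaving out 3000 m replicate 1, and became 4 on leaving out 600 m replicate 3.

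Between 2000 m and 3000 m, limma called 0 members in every tissue. The background was 0.00809% of genes in heart, 0% in lung and 0.00839% in muscle, and 46, 21 and 26 members had an unadjusted p below 0.05. In heart the 1 gene called in the background was lower, as was the 1 in muscle.

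Most calls were made in a single tissue, as they were over all genes, and none went in opposite directions. For 3000 m vs 600 m, 69 members were called in any tissue (23%, against 12.3% of the 14562 genes tested in any tissue and 18.1% of the 5794 GOAT_ genes at or above the level of the last member), and the 48 that were higher comprised 43 called in 1 tissue and 5 in 2. Of the 21 that were lower, 15 were called in 1 tissue, 5 in 2 and 1 in all 3. The share called in 1 tissue was 89.6% of the higher and 71.4% of the lower members, beside 92.8% and 82.7% over all genes. For 2000 m vs 600 m the numbers were 70 higher, with 56, 13 and 1 in 1, 2 and 3 tissues, and 31 lower, with 21, 6 and 4, so that 80% and 67.7% were called in 1 tissue, beside 89.6% and 75.1% over all genes. Over both contrasts, which share their 600 m libraries, 114 members (38%) were called somewhere and 186 nowhere, beside 27.8% of all genes and 35.7% of those GOAT_ genes called somewhere. Leaving out a single library moved the number called in all 3 tissues between 0 and 5 at 3000 m and between 0 and 9 at 2000 m, with the upper ends reached without heart 600 m replicate 1 and lung 600 m replicate 1. It was 0 at both altitudes without lung 2000 m replicate 1, 2 or 3 or lung 600 m replicate 2 or 3.

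Members led by a tissue were called outside it too. Of the 42 lung-led members tested in heart, 7 (16.7%) rose and 0 fell at 3000 m and 12 (28.6%) rose and 0 fell at 2000 m. Among lung-led GOAT_ genes at or above the level of the last member, 10.1% and 29.8% rose in heart, where calls were more frequent over all genes as well. In lung itself 1 of the 48 rose and 1 fell at 3000 m (2.08% each), and 4 rose (8.33%) and 2 fell (4.17%) at 2000 m. Of the 758 lung-led GOAT_ genes tested there, 0.264% rose and 3.17% fell at 3000 m, and 3.17% rose and 4.22% fell at 2000 m. Of the 10 muscle-led members tested in heart, 4 rose at 3000 m and 3 at 2000 m, and 0 fell, where 16.5% and 26.8% of 97 muscle-led GOAT_ genes rose. The 210 broad members gave 28 higher (13.3%) and 8 lower (3.81%) in heart at 3000 m. Lung had 1 higher (0.476%) and 10 lower (4.76%), and muscle had 4 higher (1.90%) and 6 lower (2.86%). Of the 4416 broad GOAT_ genes at or above the level of the last member, 7.11% rose and 6.95% fell in heart. In lung the shares of those GOAT_ genes were 0.249% and 4.39%, and in muscle 0.408% and 1.68%. The summed FPKM of the 14 muscle-led members in heart was 101 to 149 at 600 m, 170 to 175 at 2000 m and 175 to 195 at 3000 m. In muscle their sum was 935 to 2763 at 600 m, 1702 to 1932 at 2000 m and 1110 to 1856 at 3000 m. The heart sums at 600 m lay below all others, and the muscle sums overlapped. The 48 lung-led members summed to 760 to 1448 in heart at 600 m, 1127 to 1423 at 2000 m and 894 to 1138 at 3000 m, and these groups overlapped.

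The member lower in all 3 tissues at both altitudes was goat_GLEAN_10015328, which is broad and of rank 279. In lung its FPKM was 15.2, 21.4 and 20.2 at 600 m, 4.98, 4.11 and 7.74 at 2000 m, and 2.16, 5.13 and 3.88 at 3000 m. Its heart values were 13.8, 27.1 and 26.3, then 5.32, 5.71 and 7.71, then 3.38, 8.04 and 6.05, and in muscle 31.2, 28.3 and 37.6, then 14.6, 14.5 and 7.90, then 13.7, 12.5 and 9.51. Every 600 m library stood above every library of the same tissue at 2000 m and 3000 m. The log2 change for 3000 m vs 600 m in heart was -1.78, with an SE of 0.31 and a limma adjusted p of 0.0157, and in lung it was -2.12 (SE 0.28, 0.0269), beside -1.43 in muscle (SE 0.29, 0.042). For 2000 m vs 600 m heart fell by 1.65 (SE 0.31, adjusted p = 0.00869 by limma), lung by 1.62 (SE 0.28, 0.0358) and muscle by 1.42 (SE 0.29, 0.0323) on the log2 scale. The heart call for 2000 m was kept in all 16 alternatives. The heart call for 3000 m was lost without 3000 m replicate 1 or 600 m replicate 3, with adjusted p of 0.0513 to 0.0571. In lung the 3000 m call was lost without any 2000 m replicate, 3000 m replicate 3, or 600 m replicate 2 or 3, with adjusted p of 0.0503 to 0.14, and the 2000 m call without any 2000 m replicate or 600 m replicate 2 or 3, with 0.0734 to 0.139. In muscle the 3000 m call was lost without 2000 m replicate 1 or 2, 3000 m replicate 1 or 3, or 600 m replicate 3, with 0.0558 to 0.286, and the 2000 m call without any 2000 m replicate or 600 m replicate 3, with 0.0559 to 0.224.

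goat_GLEAN_10020512, also broad, was the other member named for its fall in all 3 tissues at 2000 m. In muscle its FPKM was 52.4, 55.9 and 47.5 at 600 m, 10.9, 9.78 and 12.2 at 2000 m, and 8.09, 20.7 and 5.80 at 3000 m. At 2000 m the log2 change from 600 m was -2.12 in muscle (SE 0.41, limma adjusted p = 0.0289), -1.57 in heart (SE 0.38, 0.0203) and -1.28 in lung (SE 0.32, 0.0499). Its groups did not overlap in any tissue in this contrast. The call was lost in 5 of 8 muscle fits (all but those without 3000 m replicates 1, 2 and 3), with adjusted p up to 0.158. In heart it was lost without 2000 m replicate 2 or 3 or 600 m replicate 2 or 3, with up to 0.0641, and in lung in 7 of 9 fits (all but those without 3000 m replicate 3 and 600 m replicate 1), with up to 0.17.

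**Figure D5:**
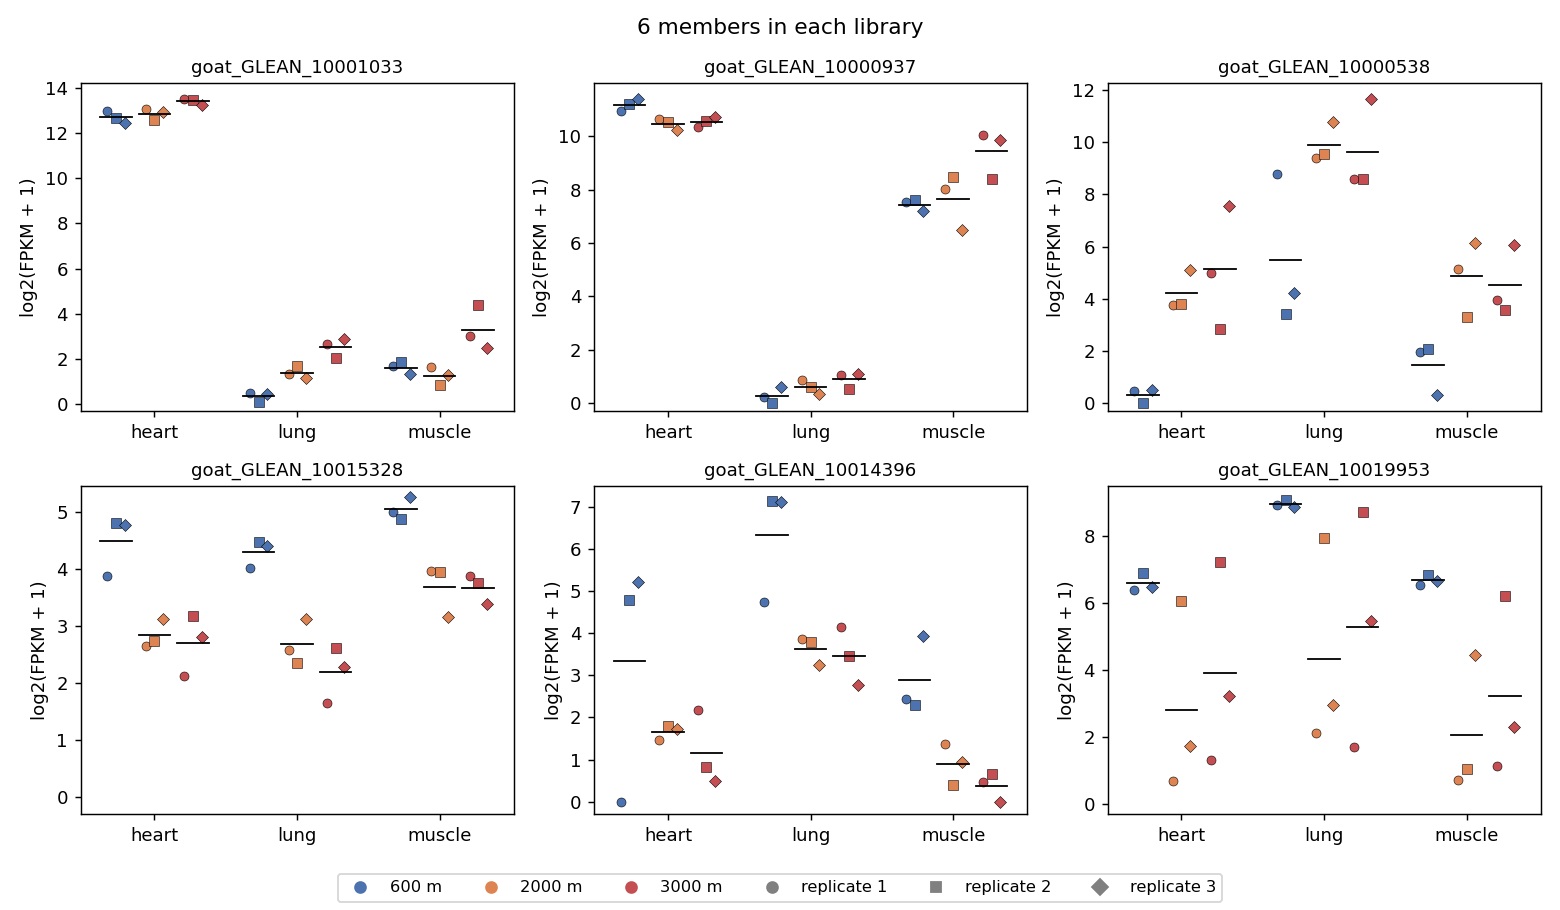
Log2(FPKM + 1) of 6 members in each library, by tissue, altitude (colour) and replicate (shape), with group means as lines; each panel has its own vertical scale. goat_GLEAN_10015328 is lower at 2000 m and 3000 m in every tissue, and goat_GLEAN_10019953 is high in 1 of 3 replicates at those altitudes and in all 9 libraries at 600 m.

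The single member higher in all 3 tissues at 2000 m was goat_GLEAN_10019870, a broad one of rank 49. In lung its FPKM was 51.5, 47.1 and 50.1 at 600 m, 102, 109 and 98.7 at 2000 m, and 80.04, 70.2 and 117 at 3000 m. Its heart values were 120, 132 and 98.8, then 192, 174 and 158, then 261, 196 and 240, and in muscle 49.1, 54.1 and 49.8, then 133, 119 and 110, then 126, 68.4 and 115. All 600 m libraries were the lowest of their tissue. From 600 m to 2000 m it rose by 0.58 on the log2 scale in heart (SE 0.16, adjusted p = 0.0312 by limma), by 1.05 in lung (SE 0.18, 0.0358) and by 1.23 in muscle (SE 0.27, 0.0368). For 3000 m vs 600 m it was 0.99 in heart (SE 0.16, limma adjusted p = 0.0143), and in lung and muscle it missed the threshold, at 0.0504 and 0.0907. The heart call for 3000 m was lost without 3000 m replicate 1, at 0.0589. The calls for 2000 m were lost in heart without 2000 m replicate 1 or 2 or 600 m replicate 3, with 0.0812 to 0.102, and in lung without any 2000 m replicate or 600 m replicate 2 or 3, with 0.0734 to 0.135. In muscle the call was lost without any 2000 m replicate, 3000 m replicate 3, the merged 600 m sample or 600 m replicate 3, with 0.0528 to 0.216.

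The largest rises in heart belonged to goat_GLEAN_10000538, a lung-led member of rank 30. Its FPKM in heart was 0.393, 0 and 0.442 at 600 m, 12.4, 12.8 and 32.9 at 2000 m, and 31.1, 6.17 and 186 at 3000 m. In lung it was 439, 9.84 and 17.7, then 663, 749 and 1761, then 379, 384 and 3240, and in muscle 2.86, 3.25 and 0.241, then 34.5, 8.87 and 70.2, then 14.7, 10.9 and 64.9. Replicate 3 at 2000 m and 3000 m was the highest of its group in every tissue, and lung replicate 1 at 600 m lay within the range at 3000 m. The log2 change was 4.80 in heart for 3000 m vs 600 m (SE 0.94, limma adjusted p = 0.0199), 3.87 in heart for 2000 m vs 600 m (SE 0.94, 0.02) and 3.70 for 2000 m vs 600 m in muscle (SE 0.92, 0.0475). The lung changes of 4.13 and 4.42 missed the threshold, with 0.0919 and 0.0723. The heart call for 3000 m was lost without 3000 m replicate 1 or 600 m replicate 2 or 3, with 0.056 to 0.0672, and that for 2000 m without 2000 m replicate 3 or 600 m replicate 2, with 0.0577 to 0.0659. The muscle call was lost without any 2000 m replicate, 3000 m replicate 1 or 600 m replicate 3, with 0.0622 to 0.347.

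In lung the largest rise called at 2000 m was that of goat_GLEAN_10018660, the member low in heart. Its FPKM in lung was 48.2, 18.5 and 35.5 at 600 m, 73.6, 85.7 and 130 at 2000 m, and 75.3, 42.8 and 66.2 at 3000 m, and in muscle 10.4, 11.4 and 6.37, then 58.5, 79.6 and 52.7, then 35.1, 6.68 and 43.8. Both tissues had their highest values at 2000 m, apart from lung 3000 m replicate 1, which lay just above the lowest 2000 m library. In heart it stayed at 0 to 0.362 in all libraries but 2000 m replicate 1, which had 5.34. Its rise from 600 m to 2000 m was 1.53 on the log2 scale in lung (SE 0.36, adjusted p = 0.0471 by limma) and 2.77 in muscle (SE 0.64, 0.0406). The lung call was lost in 8 of 9 fits (all but that without 600 m replicate 1), with 0.0507 to 0.145, and the muscle call in 6 of 8 (all but those without 3000 m replicates 2 and 3), with 0.0511 to 0.282.

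Among the rises in muscle the largest at 3000 m was that of goat_GLEAN_10018581, a broad member. Its FPKM in muscle was 15.6, 16.6 and 2.51 at 600 m, 56.0, 105 and 46.5 at 2000 m, and 117, 65.3 and 122 at 3000 m. In heart it was 54.98, 3.36 and 3.07, then 55.1, 58.1 and 190, then 102, 91.3 and 108. Replicate 1 at 600 m was above replicate 3 in both tissues, and in heart it lay just under the lowest 2000 m library. From 600 m to 3000 m the log2 change was 3.67 in muscle (SE 0.61, limma adjusted p = 0.0263) and 3.35 in heart (SE 0.90, 0.0438). The muscle call was lost without 3000 m replicate 1 or 3 or 600 m replicate 3, with 0.0769 to 0.0994, and the heart call in 7 of 9 fits (all but those without 2000 m replicate 3 and 600 m replicate 1), with 0.0626 to 0.126.

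goat_GLEAN_10005280, a broad member of rank 99, was the other named rise, called in heart and muscle at 3000 m. Its FPKM in muscle was 22.2, 19.3 and 17.1 at 600 m, 63.2, 67.2 and 36.3 at 2000 m, and 96.1, 71.8 and 102 at 3000 m. Its heart values were 64.7, 19.2 and 14.9, then 61.3, 54.7 and 149, then 124, 127 and 110. Heart replicate 1 at 600 m stood above 2000 m replicates 1 and 2, and the 3000 m libraries were above all of those at 600 m in both tissues. The log2 change for 3000 m vs 600 m was 2.18 in muscle (SE 0.29, limma adjusted p = 0.0132) and 2.13 in heart (SE 0.52, 0.0332). The muscle call was lost without 3000 m replicate 3 or 600 m replicate 3, with 0.0531 to 0.0866, and the heart call without any 3000 m replicate or 600 m replicate 2 or 3, with 0.0729 to 0.103.

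The largest falls called in lung and muscle belonged to lung-led members. goat_GLEAN_10014396 had an FPKM in lung of 25.8, 140 and 138 at 600 m, 13.6, 12.8 and 8.51 at 2000 m, and 16.7, 10.03 and 5.86 at 3000 m. In muscle it had 4.44, 3.93 and 14.3, then 1.59, 0.323 and 0.904, then 0.372, 0.578 and 0, and in heart 0, 26.6 and 36.5, then 1.77, 2.47 and 2.33, then 3.54, 0.769 and 0.393. In lung and muscle the 600 m libraries stood above all others, whereas heart replicate 1 at 600 m was at 0. At 3000 m the log2 change from 600 m was -2.87 in lung (SE 0.60, adjusted p = 0.0479 by limma) and -2.78 in muscle (SE 0.45, 0.0235), and that of heart was -2.18 (SE 1.15, 0.225). The lung call was lost in 8 of 9 fits (all but that without 600 m replicate 1), with 0.0611 to 0.164, and the muscle call without 3000 m replicate 1 or 3 or 600 m replicate 3, with 0.0683 to 0.11.

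goat_GLEAN_10016577 fell the most in muscle, where its FPKM was 28.5, 30.7 and 105 at 600 m, 11.5, 1.57 and 8.67 at 2000 m, and 6.75, 1.99 and 2.67 at 3000 m. In lung it was 50.02, 715 and 960, then 78.8, 53.8 and 29.6, then 62.7, 20.8 and 32.4. In muscle the 600 m libraries stood above all others, and in lung replicate 1 at 600 m lay among the higher altitudes. The log2 change in muscle was -3.70 for 3000 m vs 600 m (SE 0.73, limma adjusted p = 0.0395) and -3.08 for 2000 m vs 600 m (SE 0.73, 0.0427). The 3000 m call was lost without 2000 m replicate 1 or 3, 3000 m replicate 1 or 3, or 600 m replicate 3, with 0.052 to 0.289, and the 2000 m call in 6 of 8 fits (all but those without 3000 m replicate 2 and the merged 600 m sample), with 0.0515 to 0.331.

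Changes were also seen among the most abundant members. goat_GLEAN_10005503 was lower at altitude in heart, with an FPKM of 2784, 2436 and 2035 at 600 m, 1684, 1195 and 1433 at 2000 m, and 1702, 1085 and 1143 at 3000 m. Its log2 change in heart was -0.90 for 3000 m vs 600 m (SE 0.22, limma adjusted p = 0.032) and -0.75 for 2000 m vs 600 m (SE 0.22, 0.0352), without overlap of the groups. Those calls were lost in 5 and 4 of 9 fits, without any 3000 m replicate or 600 m replicate 2 or 3 (up to 0.0924), and without 2000 m replicate 2 or 3 or 600 m replicate 1 or 2 (up to 0.116). In lung it fell by 1.16 on the log2 scale at 2000 m (SE 0.25, adjusted p = 0.0436 by limma), a call lost without any 2000 m replicate, 3000 m replicate 2, or 600 m replicate 2 or 3 (up to 0.141). The lung change of -1.01 at 3000 m (SE 0.25, limma adjusted p = 0.0583) missed the threshold. So did the muscle changes of -0.78 at 3000 m and -0.73 at 2000 m (limma adjusted p = 0.146 and 0.134). None of these groups overlapped those at 600 m. The muscle-led goat_GLEAN_10004511 rose in heart from an FPKM of 25.4, 18.9 and 18.3 at 600 m to 45.4, 39.5 and 44.2 at 2000 m and 54.4, 47.3 and 36.6 at 3000 m. The log2 change was 1.02 (SE 0.18, limma adjusted p = 0.00658) at 2000 m and 1.10 (SE 0.18, 0.014) at 3000 m. In muscle, its leading tissue, the FPKM was 118, 123.3 and 94.5 at 600 m, 361, 328 and 264 at 2000 m, and 369, 197 and 367 at 3000 m, a rise of 1.55 (SE 0.31, adjusted p = 0.0299 by limma) at 2000 m and 1.47 (SE 0.31, 0.0461) at 3000 m on the log2 scale. These muscle calls were lost without any 2000 m replicate or 600 m replicate 3 (up to 0.212), and in 7 of 8 fits (all but that without 3000 m replicate 2; up to 0.302). In heart the first call was kept in every fit that left out a library, and the second was lost without 3000 m replicate 1, at 0.0552.

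The heart transcript goat_GLEAN_10001033 was called in lung at trace level. Its FPKM in lung was 0.432, 0.0881 and 0.365 at 600 m, 1.52, 2.19 and 1.26 at 2000 m, and 5.34, 3.10 and 6.50 at 3000 m, with no overlap among the 3 altitudes. Lung rose by 2.17 on the log2 scale from 600 m to 3000 m (SE 0.26, adjusted p = 0.0229 by limma) and heart by 0.72 (SE 0.20, 0.0469). In muscle its FPKM was 2.21, 2.61 and 1.53 at 600 m and 7.09, 20.0 and 4.63 at 3000 m, without overlap. The muscle change of 1.75 (SE 0.49, limma adjusted p = 0.0907) missed the threshold. The summed FPKM of the other heart-led members in lung was 12.02 to 17.64 at 600 m, 16.9 to 20.3 at 2000 m and 13.2 to 22.9 at 3000 m, so the 600 m and 3000 m ranges overlapped. The lung call was lost without 2000 m replicate 3, 3000 m replicate 3, or 600 m replicate 2 or 3, with 0.0545 to 0.116. The heart call was lost in 8 of 9 fits (all but that without 600 m replicate 1), with 0.0551 to 0.148.

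An interaction contrast over the 9 groups asked if a member changed from 600 m to 3000 m by unequal amounts in a pair of tissues. Between heart and lung limma called 0 members, with 39 at an unadjusted p below 0.05, beside a background of 0.175% of 13723 genes, and 1 member when the animal, taken as altitude and replicate number, was a block. Between heart and muscle 4 were called, beside 1.22%, and between lung and muscle 2, beside 1.66%. Same-numbered libraries correlated at -0.291 to 0.330 between heart and muscle and -0.463 to 0.301 between lung and muscle, with the lowest values at 2000 m. A number may therefore not mark the same animal in muscle at 600 m or 2000 m. The block fit also kept muscle 600 m replicates 1 and 2 apart, which alone gave 6 for lung against muscle. With the animal as a block, and those replicates apart, the counts for heart against muscle and lung against muscle became 8 and 9. Without muscle 3000 m replicate 2 they were 18 and 14, without the merged muscle 600 m sample, which leaves 1 sample there whose spread is taken from the other groups, 23 and 10, and without lung 600 m replicate 1 the counts for heart against lung and lung against muscle were 6 and 7. Leaving out any other single sample gave 0 to 2 for heart against lung, 1 to 6 for heart against muscle and 1 to 5 for lung against muscle.

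goat_GLEAN_10000937, the heart-led striated-muscle transcript, differed most in its change between heart and muscle. In heart its FPKM was 1959, 2381 and 2711 at 600 m, 1583, 1464 and 1205 at 2000 m, and 1282, 1525 and 1674 at 3000 m. In muscle it was 184, 192 and 144 at 600 m, 259, 350 and 88.3 at 2000 m, and 1061, 335 and 924 at 3000 m. All 3000 m libraries were below those at 600 m in heart and above them in muscle. The heart change was -0.65 on the log2 scale (SE 0.18, limma adjusted p = 0.0475), the muscle change of 2.06 (SE 0.61, 0.101) missed the threshold, and the difference of heart minus muscle was -2.71 (SE 0.59, 0.0268). The difference was lost in 7 of 26 fits, without heart 3000 m replicate 1 or 2, heart 600 m replicate 2 or 3, muscle 3000 m replicate 1 or 3, or muscle 600 m replicate 3, with 0.0506 to 0.146. The heart call was lost in 7 of 9 fits (all but those without 2000 m replicate 3 and 600 m replicate 1), with up to 0.159. The 13 heart-led members together, without the most abundant, summed in muscle to an FPKM of 158 to 215 at 600 m, 119 to 391 at 2000 m and 370 to 1159 at 3000 m, most of it from goat_GLEAN_10000937.

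goat_GLEAN_10003569, also heart-led, had an FPKM in muscle of 10.4, 10.1 and 4.09 at 600 m, 18.6, 24.7 and 16.2 at 2000 m, and 85.6, 23.5 and 29.5 at 3000 m. In lung it lay at 0.147 to 0.519 and was not tested there, since its mean FPKM was under 0.5. The muscle groups at 600 m and 3000 m did not overlap, and the change of 2.41 (SE 0.52, limma adjusted p = 0.052) missed the threshold. The difference of lung minus muscle was -2.11 (SE 0.52, limma adjusted p = 0.0417) on the log2(FPKM + 1) scale, which leaves little room for a change at such lung levels, and with a pseudocount of 0.1 it was -1.58 and the call was lost (adjusted p = 0.168). It is therefore no measure of how the FPKM change of this member differed between the tissues. It was lost in 13 of 26 fits that left out a sample, 3 of them of heart (3000 m replicates 1 and 3 and 600 m replicate 3), 7 of lung (all but those without 600 m replicate 1 and 2000 m replicate 3) and 3 of muscle (3000 m replicates 1 and 3 and 600 m replicate 3), with 0.0511 to 0.263. The other members called, named after their values were seen, were goat_GLEAN_10009864, with differences of 2.04 for heart minus muscle (SE 0.37, limma adjusted p = 0.00673) and 2.06 for lung minus muscle (SE 0.37, 0.00569), goat_GLEAN_10016603, with 1.79 for heart minus muscle (SE 0.43, 0.0449), and goat_GLEAN_10000207, with -2.65 (SE 0.64, 0.0455).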

How the data were processed

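The authors aligned the reads with TopHat2 2.0.11 and estimated FPKM with Cufflinks 2.2.1 (versions per the submitters' processing notes) on the goat genome CHIR_1.0, and deposited log2 values of FPKM + 1, with 22131 genes and 27 columns. The study's methods state this for 600 m and 3000 m only. Libraries were strand-specific per the labels. FPKM was recovered by inverting the log2 value. 0 of the 22131 IDs were found in the gene name table used here, so no symbol, position or sequence is given. The members and all lists were chosen with earlier results of these data known.

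Like GOAT_ genes are those in the same step of width 1 of the largest tissue mean on the log2 scale, weighted by the members' numbers. limma 3.58.1 (lmFit, eBayes with trend; two-sided, Benjamini-Hochberg over all genes tested) stood in for the study's Cuffdiff, with 3 altitudes in each tissue's fit, 26 samples after merging, and genes with a mean FPKM above 0.5. It was tested on simulated data. Deviations from the group means correlated at 0.148 to 0.511 between heart and lung libraries that share a replicate number, against -0.454 to 0.175 where the numbers differ, so the numbers pair heart and lung. With muscle the same-numbered correlations reached as low as -0.291 (heart) and -0.463 (lung), both at 2000 m, so no such pairing was found there. At 600 m replicate 2 gave -0.0533 (heart) and -0.0755 (lung), and replicates 1 and 3 gave 0.196 to 0.330. At 3000 m shared numbers gave 0.272 to 0.313 (heart) and 0.151 to 0.242 (lung). Different numbers there gave -0.219 to -0.00464 and -0.181 to 0.0296, so at 3000 m the numbers also pair muscle. As an alternative, the interaction fit took the animal as a block. Per-library read numbers were not used here, and depth was estimated relative to other libraries, from genes with an FPKM below 0.15.

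The members named were the 2 most abundant of each class; per tissue and contrast with 600 m, the called member with the largest rise and fall without overlap of groups; the 2 rising and 2 falling members called in the most tissues; and, per pair of tissues, the largest called interaction. Alternatives were a pseudocount of 0.1, other filters, median-of-ratios and quantile scaling, only the compared altitudes in the fit, a replicate block, unmerged replicates and leaving out each sample. The fits were run in R 4.3.3. Tables and plots were made in Python 3.11.15 (pandas 2.3.3, NumPy 2.4.6, matplotlib 3.10.9).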

Additional observations from a re-analysis of the deposited data

Results flagged for a closer look

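The results here were picked out because the 3000 m vs 600 m change of a member differed between tissues by a test of the difference itself (limma interaction). Between heart and muscle 4 of 300 members passed, beside 1.22% of all 13723 genes tested. Between lung and muscle 2 of 300 passed, beside 1.66%. For goat_GLEAN_10000937 the heart change minus the muscle change was -2.71 on the log2 scale, and for goat_GLEAN_10003569 the lung change minus the muscle change was -2.11. The latter rests on the muscle change, since the lung FPKM was 0.147 to 0.519, where the log2(FPKM + 1) scale hardly moves, and it was not called with a pseudocount of 0.1 (limma adjusted p = 0.168). Groups of 3 or fewer samples were not searched for single samples that stand apart.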

How the results depend on the processing

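The members called for 3000 m vs 600 m in heart (53) numbered 35 with no filter on low FPKM, 15 with only the compared altitudes in the fit and 35 with a replicate block. In lung (14) they numbered 6 with no filter, 22 with the study's filter, 3 after quantile normalization, and 0 both with only the compared altitudes and with the block. In muscle (14) they numbered 1 with no filter, 1 with only the compared altitudes and 42 with replicates 1 and 2 at 600 m kept apart. For 2000 m vs 600 m, lung (21) gave 7, 37, 32, 5 and 0 with no filter, the study's filter, median-of-ratios scaling, the compared altitudes and the block, and muscle (29) gave 4, 17 and 49 with no filter, the compared altitudes and unmerged replicates. Leaving out 1 sample gave 0 to 74, 0 to 44 and 0 to 37 in heart, lung and muscle at 3000 m, and 45 to 93, 0 to 52 and 3 to 37 at 2000 m. The number called in all 3 tissues at 3000 m (1) was 0 with no filter, quantile normalization, the compared altitudes or the block, 2 after median-of-ratios scaling, 3 unmerged and 0 to 5 with a sample left out. At 2000 m (5) it was 1 with no filter or with the compared altitudes, 0 with the block and 0 to 9 with a sample left out. The interactions gave 1 (heart against lung), 8 (heart against muscle) and 9 (lung against muscle) with the block, 8 for heart against muscle after median-of-ratios scaling, and 1 and 6 for lung against muscle with a pseudocount of 0.1 and unmerged, and 0 to 6, 1 to 23 and 1 to 14 with a sample left out. The causes were not tested. Between 2000 m and 3000 m the count was 0 in every limma fit.

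Replicate numbers did not pair the altitudes within a tissue (deviations of same-numbered libraries correlated at -0.206 to 0.356), so the replicate block there, with 35, 0 and 20 calls at 3000 m and 73, 0 and 37 at 2000 m, rests on a shared number only. All fits with a block also kept muscle 600 m replicates 1 and 2 apart, which without a block gave 42 and 49 calls in muscle. The muscle counts of 20 and 37 therefore mix both changes. Of 48 calls of named members, 2 held in each fit that left out a sample, and the block ended 17. In all, 350 of 794 alternative values of these calls missed the threshold and 0 changed sign.

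The share led by 1 tissue (25%) was 50% where a lead of 1 on the log2 scale was enough, 20.8 to 28.3% under the other alternatives and 25.7 to 27% with a replicate number left out. The share detected in all 27 libraries was 79 to 87% under other levels, ranks and scaling.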
